A study of Homo sapiens with 2 samples.

Results

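Aminoacyl-tRNA synthetases are the enzymes that join each amino acid to its tRNA. Messenger RNA for 38 of these enzymes and their cofactors was followed in the human glioblastoma cell line U251, grown in high-glucose medium, after 6 h with 5 µM G-TPP or with its solvent DMSO. G-TPP is a Gamitrinib, an Hsp90 inhibitor coupled to triphenylphosphonium, a cation drawn into mitochondria, and its intended target is the Hsp90-type chaperones there, so the comparison asks how transcripts respond to it. The cells are a single established line, and whether the chaperones were inhibited was not measured. Members were chosen by gene symbol: the cytosolic enzymes have names ending in ARS1, to which EPRS1, FARSA, FARSB, AIMP1 and AIMP2 were added, the mitochondrial ones have names ending in ARS2, and the threonyl enzyme gene TARS3 stands apart because its name fits neither rule. Of the 38 members, 37 had a probe set that names 1 gene, out of 18417 genes so named on the array, and these were 20 cytosolic members, 16 mitochondrial members and TARS3. AIMP2 was not analysed here.

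Each condition has 1 array, so no error and no test can be given, and every "higher" or "lower" refers to 1 array set against 1 other. Values are the deposited intensities on a linear scale, which cannot be set against each other between probe sets, and differences are log2 G-TPP minus log2 DMSO. A gene was kept if its brighter array reached the median of all probe sets, an intensity of 239.2. TARS3 fell under this limit and the other 36 measured members passed it, which left 11091 genes in all. In bulk RNA a lower signal from fewer cells of a type and from less RNA per cell cannot be told apart.

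Human cells translate in both the cytosol and the mitochondrial matrix, and most amino acids have a separate nuclear gene for each place. The cytosolic enzymes charge tRNA for the bulk of protein synthesis. Several of them sit together in the multi-synthetase complex, which the scaffold proteins AIMP1 and AIMP2 hold, and others work free of it. The mitochondrial enzymes are imported and charge the tRNAs that mitochondrial DNA encodes. Many cytosolic synthetase genes are known targets of ATF4, the transcription factor of the integrated stress response, which binds composite C/EBP-ATF response elements with a C/EBP partner.

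One letter form of this response element, TTGCATCA read on either strand, lies in the promoter windows of 6 cytosolic synthetase genes, shown here because these genes are described as a set in the results. The windows are from RefSeq (GRCh38.p14) and span 250 bases before to 50 bases from each gene's start, and 32 of the 38 members had at least 1 such window. Each stretch is printed 5′ to 3′ on the gene's strand, with the match in capitals.
CARS1: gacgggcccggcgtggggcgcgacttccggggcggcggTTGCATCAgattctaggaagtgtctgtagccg
AARS1: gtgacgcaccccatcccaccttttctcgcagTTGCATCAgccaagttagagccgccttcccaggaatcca
MARS1: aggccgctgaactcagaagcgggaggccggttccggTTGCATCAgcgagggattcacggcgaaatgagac
TARS1: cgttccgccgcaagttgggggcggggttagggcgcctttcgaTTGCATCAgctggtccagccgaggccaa
IARS1: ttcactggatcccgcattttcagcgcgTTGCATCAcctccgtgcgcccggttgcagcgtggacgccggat
NARS1: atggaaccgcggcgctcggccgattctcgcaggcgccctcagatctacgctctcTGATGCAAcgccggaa
These stretches lie at chr11:3057394-3057463 (minus strand) for CARS1, chr16:70289655-70289724 (minus) for AARS1, chr12:57488028-57488097 (plus) for MARS1, chr5:33440925-33440994 (plus) for TARS1, chr9:92293668-92293737 (minus) for IARS1 and chr18:57621807-57621876 (minus) for NARS1. In 5 of the 6 the match lies next to the annotated start, and in AARS1 it begins at -187, counting back from it.

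The cytosolic synthetase genes were partly higher with G-TPP and the mitochondrial ones were not. Of 20 kept cytosolic members, 5 reached 2-fold in the higher direction and 0 in the lower, against 2.80% and 0.550% of all kept genes. Of 16 kept mitochondrial members, 0 were at least 2-fold higher or lower, which is close to those shares over all kept genes. The cytosolic median log2 difference was 0.53 and the mitochondrial median was -0.15, 0.67 apart before rounding, with -0.04 over all kept genes. Above 0 were 13 cytosolic and 5 mitochondrial members, a share that was 44.0% over all kept genes.

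Among the cytosolic enzymes the 5 members past 2-fold were led by GARS1, the glycyl-tRNA synthetase, which supplies both cytosol and mitochondria from a single gene. GARS1 had an intensity of 7272 with G-TPP, against 2715 with DMSO, a log2 difference of 1.42 (2.68-fold). CARS1, the cysteinyl enzyme, had 975.0 with G-TPP, against 367.2 with DMSO (1.41, 2.66-fold). Both were far above the difference of most genes, since 1.17% of kept genes lay higher than GARS1. WARS1, the tryptophanyl enzyme, which interferon also induces, had 3539.8 with G-TPP, against 1421 with DMSO (1.32, 2.49-fold). For AARS1, the alanyl enzyme, the values were 6179 with G-TPP and 2591 with DMSO (1.25, 2.38-fold). MARS1, which charges both initiator and elongator methionine tRNA of the cytosol, had 4024 with G-TPP, against 1986 with DMSO (1.02, 2.03-fold), just past the limit.

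**Figure D1:**
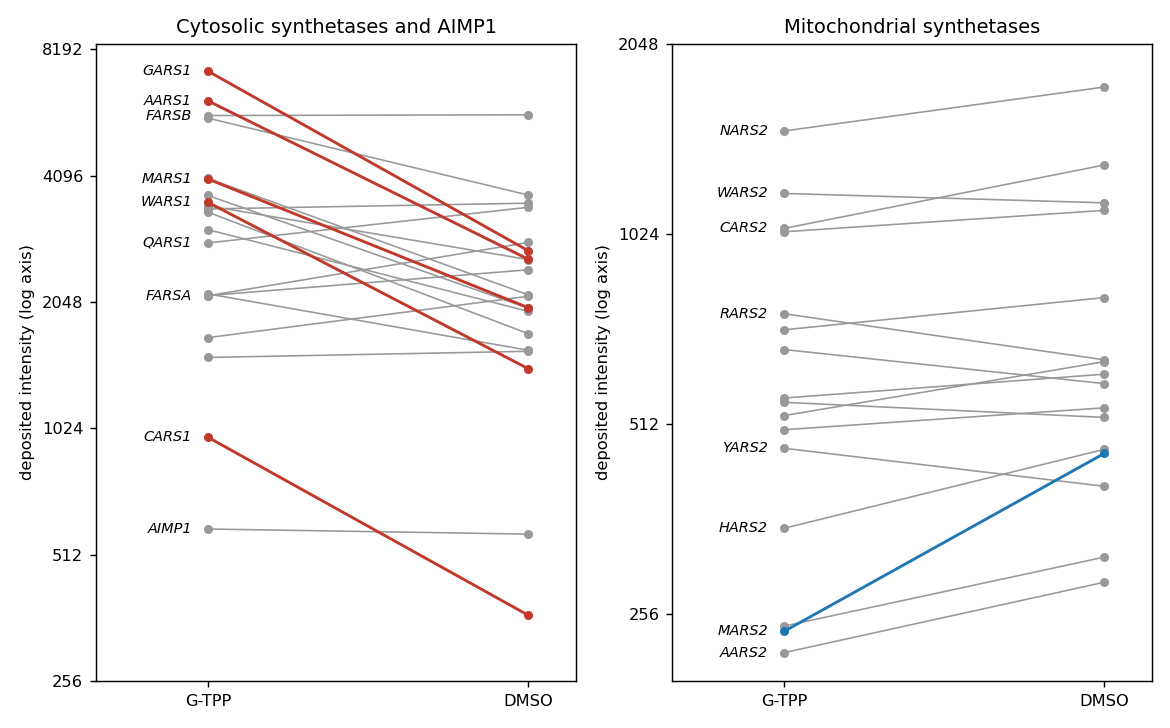
Deposited intensity of each kept member (log axis) in the G-TPP array and the DMSO array, with cytosolic members on the left panel and mitochondrial members on the right. Coloured lines are the 5 cytosolic members past 2-fold, all higher with G-TPP, and MARS2, which had 240.2 with G-TPP and 459.8 with DMSO.

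Just under 2-fold came 3 more. SARS1, the seryl enzyme, which also loads serine on the tRNA for selenocysteine, had 3354 with G-TPP and 1722 with DMSO (log2 difference 0.96, 1.95-fold). YARS1, the tyrosyl enzyme, had 4036 with G-TPP, against 2131 with DMSO (0.92, 1.89-fold). TARS1, the threonyl enzyme, had 3676 with G-TPP, against 1981 with DMSO (0.89, 1.86-fold). They form a continuous run with MARS1, so the count of 5 depends on where the limit is set. EPRS1, which joins the glutamyl and prolyl enzymes in a single protein, had 3047 with G-TPP, against 1946 with DMSO (0.65, 1.57-fold). IARS1, the isoleucyl enzyme, had 5620.3 with G-TPP, against 3685 with DMSO (0.61, 1.53-fold). At 1.5-fold, 10 of the 20 cytosolic members were higher and 0 lower, where 7.37% and 3.23% of all kept genes were.

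Below 1.5-fold the leucyl and asparaginyl enzymes still stood above 0. LARS1 had 2142 with G-TPP, against 1572 with DMSO (log2 difference 0.45), and NARS1 had 3473 with G-TPP, against 2586 with DMSO (0.43). After NARS1 the ordered cytosolic values left their widest gap, 0.38, where the next widest was 0.24, so that 12 members lay at 0.43 or more and 8 at 0.04 or less. The median was 0.94 in the upper 12 and -0.13 in the lower 8. This split was read from the values themselves and is a description only.

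The lower 8 were AIMP1 and the enzymes for phenylalanine, valine, histidine, lysine, glutamine and arginine. AIMP1, the complex scaffold that is also cleaved into a secreted cytokine, had 589.3 with G-TPP, against 573.0 with DMSO (log2 difference 0.04). FARSB, the beta subunit of the phenylalanyl enzyme, had 5701 with G-TPP, against 5724 with DMSO (-0.01), and turned to 0.04 when the median of all kept genes was set to 0 and to 0.03 after lowess centring. FARSA, its alpha subunit, had 2120.1 with G-TPP, against 2841 with DMSO (-0.42) and was the lowest cytosolic member, under the 25th percentile of all kept genes (-0.21), unlike its partner subunit. For VARS1, the valyl enzyme in the MHC region of chromosome 6, the values were 1511 with G-TPP and 1563 with DMSO (-0.05). HARS1, the histidyl enzyme, had 3414 with G-TPP, against 3524 with DMSO (-0.05). VARS1 and HARS1 were thus nearly level between the arrays.

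KARS1, the lysyl enzyme, is made for cytosol and mitochondria from the same gene, as GARS1 is. It had 2122 with G-TPP, against 2445 with DMSO (log2 difference -0.20). The genes that serve both places thus differed from each other, GARS1 as the highest cytosolic member at 1.42 and KARS1 below 0. QARS1, the glutaminyl enzyme, had 2833 with G-TPP, against 3445 with DMSO (-0.28), and RARS1, the arginyl enzyme, had 1685 with G-TPP, against 2114 with DMSO (-0.33). TARS3, related to TARS1 and dim on the array, had 211.2 with G-TPP, against 230.5 with DMSO (-0.13).

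**Figure D2:**
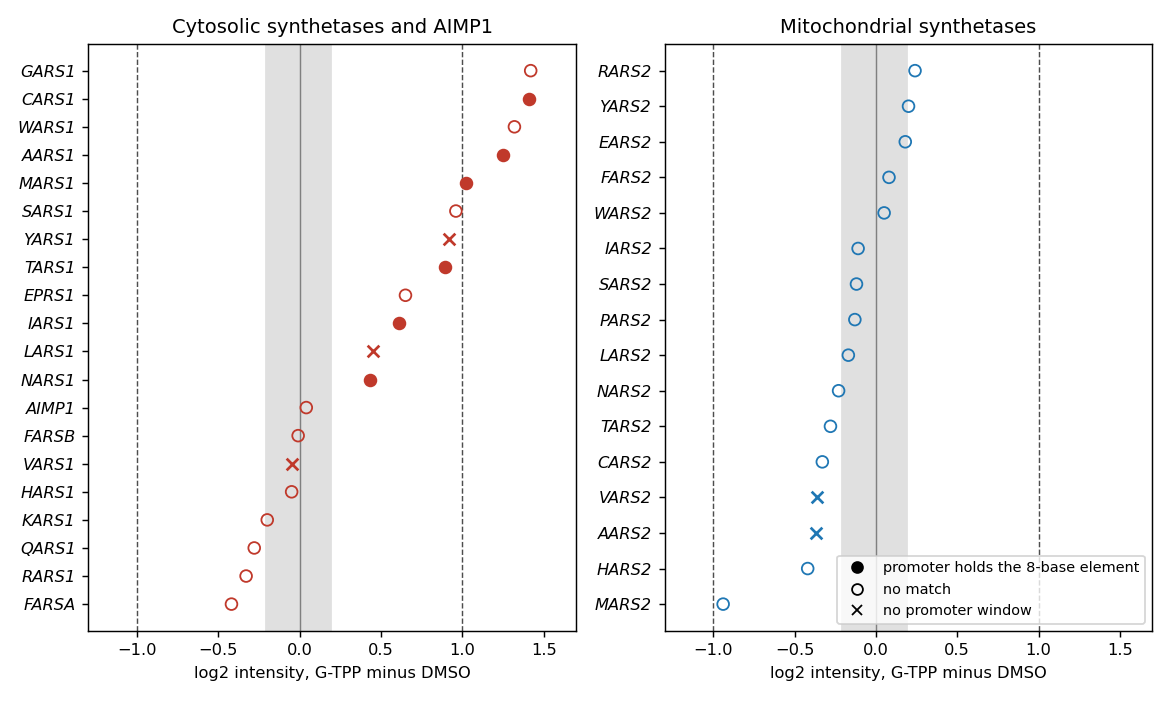
Log2 difference, G-TPP minus DMSO, of the 20 cytosolic (red) and 16 mitochondrial (blue) members. Filled points are genes whose promoter window holds TTGCATCA, open points genes whose windows do not, and crosses genes with no window; dashed lines mark 2-fold, and the grey band spans the middle of all kept genes from the 25th to the 75th percentile (-0.21 to 0.19). The 6 filled points lie between 0.43 and 1.41.

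Position in the complex divided the cytosolic list unevenly. In the multi-synthetase complex 1 of 8 measured members, MARS1, was at least 2-fold higher, with a median log2 difference of 0.24 and values from -0.33 to 1.02. Of the 12 cytosolic genes outside it, 4 were at least 2-fold higher, with a median of 0.91 and values from -0.42 to 1.42. The 4 genes past 2-fold outside the complex all lay above MARS1, the complex's highest. The range of the complex lay wholly within that of the genes outside it, and the difference between the sets was not tested. The structural classes of synthetase, which bind ATP through unrelated folds, differed less: class I had a median of 0.61 over 9 genes with 3 past 2-fold, and class II had 0.43 over 9 genes with 2 past 2-fold.

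Mitochondrial synthetase genes lay closer together than the cytosolic ones, with or without MARS2. MARS2, the methionyl enzyme of the matrix, had 240.2 with G-TPP, against 459.8 with DMSO (log2 difference -0.94, 1.91-fold lower), and 0.685% of kept genes lay lower. HARS2, the histidyl enzyme, had 349.8 with G-TPP, against 466.7 with DMSO (-0.42). AARS2, the alanyl enzyme, had 222.2 with G-TPP, against 287.3 with DMSO (-0.37). Without MARS2 the mitochondrial values ran from -0.42 to 0.24, with a standard deviation of 0.22. With MARS2 included it was 0.30, against 0.63 for the 20 cytosolic members. The lower and upper quartiles of all kept genes were -0.21 and 0.19, so small differences were not particular to the mitochondrial members. Above the mitochondrial median of -0.15 lay 66.2% of kept genes. The scatter between probe sets of the same gene on the log2 scale was 0.17 over 328 genes. It sets probe sets against each other within the same arrays, so it holds no difference between cultures or between arrays. Probe sets with identical values, such as those of VARS1, lower it.

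Further below 0 were the enzymes for valine, cysteine, threonine and asparagine. VARS2 had 244.8 with G-TPP, against 314.9 with DMSO (log2 difference -0.36), and CARS2, also a source of cysteine persulfides, had 1045 with G-TPP, against 1317 with DMSO (-0.33). TARS2 had 527.7 with G-TPP, against 642.5 with DMSO (-0.28). NARS2 had 1491 with G-TPP, against 1750.5 with DMSO (-0.23). None of these came near 2-fold.

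The remaining mitochondrial members lay around 0. LARS2, the leucyl enzyme, had 721.7 with G-TPP and 811.7 with DMSO (log2 difference -0.17), and PARS2, the prolyl enzyme, 562.7 with G-TPP and 613.8 with DMSO (-0.13). SARS2, the seryl enzyme, had 501.2 with G-TPP and 542.9 with DMSO (-0.12), and IARS2, the isoleucyl enzyme, 1032 with G-TPP and 1116 with DMSO (-0.11). All 4 were lower with G-TPP by no more than the scatter between probe sets. WARS2, the tryptophanyl enzyme, had 1187 with G-TPP and 1147 with DMSO (0.05), and was -0.01 after quantile normalization. FARS2, the phenylalanyl enzyme, a single chain unlike its cytosolic counterpart, had 553.9 with G-TPP and 524.2 with DMSO (0.08).

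At the upper end of the mitochondrial list stood 3 genes. EARS2, the glutamyl enzyme, also charges the glutamine tRNA of mitochondria with glutamate, and had 671.5 with G-TPP and 593.0 with DMSO (log2 difference 0.18). YARS2, the tyrosyl enzyme, had 468.4 with G-TPP and 407.7 with DMSO (0.20). RARS2, the arginyl enzyme, had 765.2 with G-TPP and 646.8 with DMSO (0.24), the highest of the 16. The 12 cytosolic genes above the gap all exceeded it.

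The mitochondrial members' brighter arrays ran from 287.3 to 1750.5, and residual background in dim probe sets pulls folds towards 1. Within that range 199 of 8038 kept genes (2.48%) were at least 2-fold higher and 0.610% at least 2-fold lower, close to the shares over all kept genes. The range takes in most of the 11091 kept genes, so its shares could hardly differ from theirs. The part of brightness in the mitochondrial members' small differences was not tested. As a floor, the 95th percentile of 341 olfactory receptor genes, a family silent in most tissues, was 173.6 with G-TPP and 172.6 with DMSO, and every measured member was above it in both arrays.

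Set side by side for the same amino acid, the cytosolic gene was mostly the higher one. The 17 pairs cover 16 amino acids, with EPRS1 paired to both EARS2 and PARS2, and FARS2 to both FARSA and FARSB, so pairs that share a gene are not independent. The cytosolic log2 difference exceeded the mitochondrial one in 14 pairs and was under it in 3, with a median excess of 0.72 and 6 pairs at 1 or more. Methionine had the widest excess, 1.96, since MARS1 was higher and MARS2 lower with G-TPP. Cysteine (1.74), alanine (1.62) and tryptophan (1.27) followed, and threonine (1.18) and serine (1.08) also passed 1.

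The reverse order appeared for arginine and phenylalanine. RARS1 lay 0.57 under RARS2 (a difference of -0.57), FARSA 0.50 under FARS2 (-0.50) and FARSB 0.09 under FARS2 (-0.09). For histidine and valine both genes of the pair were below 0, with an excess of 0.37 and 0.31.

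**Figure D3:**
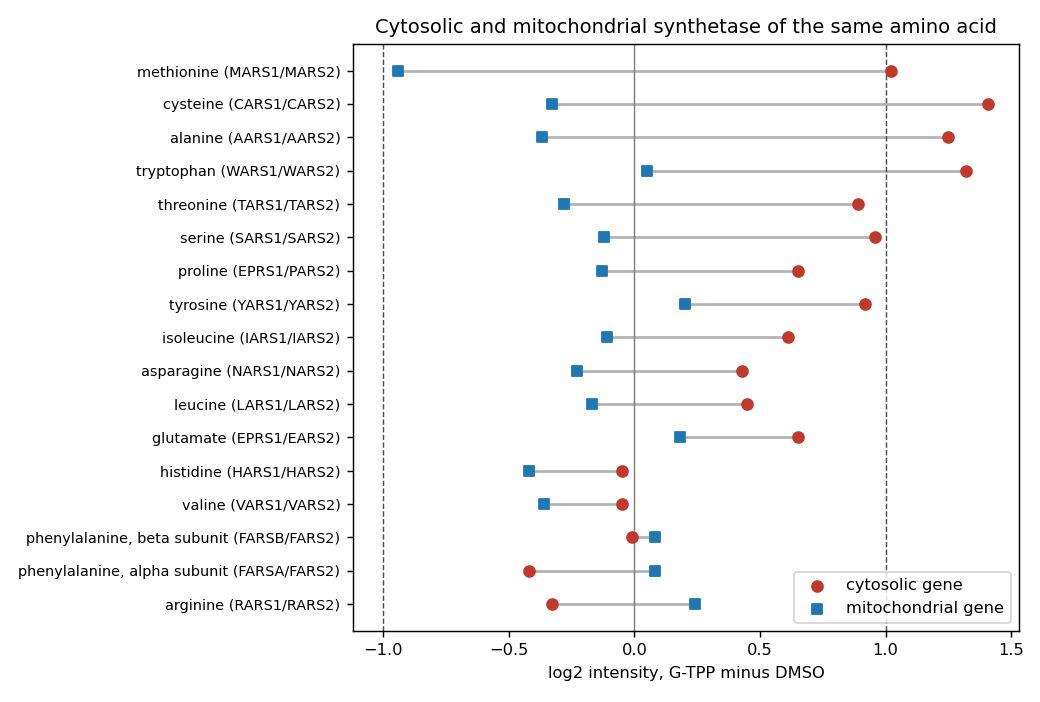
Log2 difference, G-TPP minus DMSO, of the cytosolic (red circles) and mitochondrial (blue squares) synthetase of each amino acid, ordered by their distance; dashed lines mark 2-fold. The circle lies right of the square in 14 of 17 pairs, farthest for methionine (1.96), and left of it for arginine and both phenylalanine subunits.

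The histidine pair shares a start region. HARS1 and HARS2 are transcribed away from each other on chromosome 5, with 84 bases between their annotated ends, and had log2 differences of -0.05 and -0.42. The stretch from -120 to 30 relative to the HARS2 start, at chr5:140691335-140691484 on the plus strand, is printed because it holds the starts of both genes.
HARS2: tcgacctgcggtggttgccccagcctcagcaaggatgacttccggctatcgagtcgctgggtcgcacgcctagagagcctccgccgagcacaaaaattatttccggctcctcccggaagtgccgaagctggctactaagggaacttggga
Neither TTGCATCA nor its reverse is in the windows of these genes.

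The promoter matches printed near the opening are set here beside the share over all genes. TTGCATCA was found in the windows of 6 of 17 measured cytosolic members with a window, and in 0 of 14 mitochondrial members with one. Over all 35116 promoter windows of the same length 0.866% hold it, and over the 8946 kept genes with a window 0.838% do. The mitochondrial 0 of 14 is close to that share. All 6 cytosolic genes with a match were above 0, with a median log2 difference of 0.96 and values from 0.43 to 1.41, and 3 of them (CARS1, AARS1 and MARS1) were at least 2-fold higher. The other 11 had a median of -0.01 with values from -0.42 to 1.42, and 2 of them (GARS1 and WARS1) were at least 2-fold higher. GARS1 and WARS1 thus reached a high difference without these letters in their windows.

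Counting the start base as 1 and the base before it as -1, the match spans -2 to 6 in CARS1, -4 to 4 in MARS1, 3 to 10 in TARS1, -13 to -6 in IARS1 and 15 to 22 in NARS1. In AARS1 it spans -187 to -180. Of 309 matches over all windows, 14.9% begin within 25 bases of the start, against 5 of the 6 here. TARS1 has 2 annotated starts, and the match belongs to the window of the downstream one. Of the 75 kept genes with a match, 12 were at least 2-fold higher, where 2.93% of the 8946 were, and 3 of the 12 are the synthetase genes named above. A high share was not particular to these letters. At least 2-fold higher were 5 of 16 kept genes with the ER stress response element and 5 of 37 with a heat shock element. The share lay below 2.93% for the E-box CACGTG (2.25%) and the ETS motif CCGGAAG (2.3%). Differences between these shares were not tested.

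The looser form TGATGNAA, which includes TTGCATCA read on the other strand, added GARS1 among the cytosolic genes and YARS2 among the mitochondrial ones, and 3.62% of all windows hold it. In GARS1 it lies at -33 to -26 from the downstream of 2 annotated starts, within chr7:30594823-30594891 on the plus strand, shown because GARS1 had the highest difference of all members.
GARS1: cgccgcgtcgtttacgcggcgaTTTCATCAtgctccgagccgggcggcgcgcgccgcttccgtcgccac
Capitals mark the match, TTTCATCA, which reads TGATGAAA on the other strand. No match to TGATGNAA was in the windows of WARS1, SARS1 or EPRS1.

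Another element, the E-box CACGTG, a palindrome bound by factors such as MYC and USF, was in the windows of 3 of 14 mitochondrial members (MARS2, CARS2 and EARS2) and 1 of 17 measured cytosolic members (IARS1), where 7.26% of all windows and 12.9% of kept genes with a window hold it. Those 3 mitochondrial genes had log2 differences of -0.94, -0.33 and 0.18, so they did not move as a set. The MARS2 stretch from -120 to 30, at chr2:197705249-197705398 on the plus strand, is printed because MARS2 was the lowest member, with the E-box in capitals.
MARS2: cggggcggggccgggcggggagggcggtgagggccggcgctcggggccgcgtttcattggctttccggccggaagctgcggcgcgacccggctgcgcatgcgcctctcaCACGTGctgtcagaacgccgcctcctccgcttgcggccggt
The ETS motif CCGGAAG was common in both compartments, in 9 of 17 cytosolic and 7 of 14 mitochondrial members, against 22.4% of kept genes with a window. HARS1 and HARS2 enter these counts through the same sites in their shared start region, so the counts are not independent. The ER stress response element (27 windows) and a heat shock element (172 windows) were in 0 members' windows. Over kept genes with a window the shares were 0.179% and 0.414%, so 0 is close to the share over all genes. In all 14 motifs were searched on both strands, a match is letters in a window only, and no binding was measured.

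Genes around the synthetases in tRNA biology did not share the cytosolic shift. Of the amidotransferase and other charging genes outside the members, 6 were kept with a median log2 difference of -0.05, and 0 reached 2-fold. SEPSECS, which completes selenocysteine on its tRNA, was at 0.64, with 300.8 with G-TPP and 193.5 with DMSO. MTFMT, which formylates the methionine that MARS2 loads so that mitochondrial translation can begin, was at -0.59, with 704.0 with G-TPP and 1059 with DMSO. MARS2 and MTFMT act in succession, and both were lower with G-TPP, though neither reached 2-fold. QRSL1 and GATC, subunits of the amidotransferase that turns mitochondrial glutamate-loaded tRNA into its glutamine form, were at 0.09 and -0.20, and DTD2, which clears wrongly loaded tRNA, was at -0.30.

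For tRNA maturation and export 21 genes were kept, 7 above 0, 14 below and 0 at 2-fold, and their median log2 difference was -0.05. PRORP, the nuclease subunit of mitochondrial RNase P, which cuts the 5′ end of mitochondrial tRNAs, had 451.7 with G-TPP, against 821.9 with DMSO (-0.86). ELAC2, which cuts the 3′ end in nucleus and mitochondria, had 1105 with G-TPP, against 1901 with DMSO (-0.78). These were lower by nearly as much as MARS2, and POP1 of the nuclear RNase P, at 352.8 with G-TPP and 589.3 with DMSO, was at -0.74. TRMT10C and HSD17B10, the partners of PRORP, were at -0.39 and -0.14. In the other direction TSEN15, a subunit of the tRNA splicing endonuclease, had 1798 with G-TPP, against 970.7 with DMSO (0.89), and XPOT, the exportin of tRNA, had 3762 with G-TPP, against 2611 with DMSO (0.53).

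For tRNA modification 34 genes were kept, 23 of them below 0 and 1 at least 2-fold lower, and the median log2 difference was -0.17. That gene was ADAT2, the catalytic part of the deaminase that makes inosine at the wobble base, with 264.1 with G-TPP and 561.4 with DMSO (-1.09, 2.13-fold lower), while its partner ADAT3 was at -0.18. TRMT2A and PUS7 were both at -0.52, and MTO1, which modifies the wobble uridine of mitochondrial tRNAs, was at 0.51. Elongation factors, which carry charged tRNA to the ribosome or move it there, were nearly level, with a median of -0.12 over 9 genes and values from -0.33 (TSFM) to 0.01 (EEF2); GFM1 was at -0.26, and TUFM and EEF1D were both at -0.15. Of the genes that sense uncharged tRNA, the kinase gene EIF2AK4 (GCN2) was at -0.10, its activator GCN1 at -0.39 and the inhibitor IMPACT at 0.20.

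**Figure D4:**
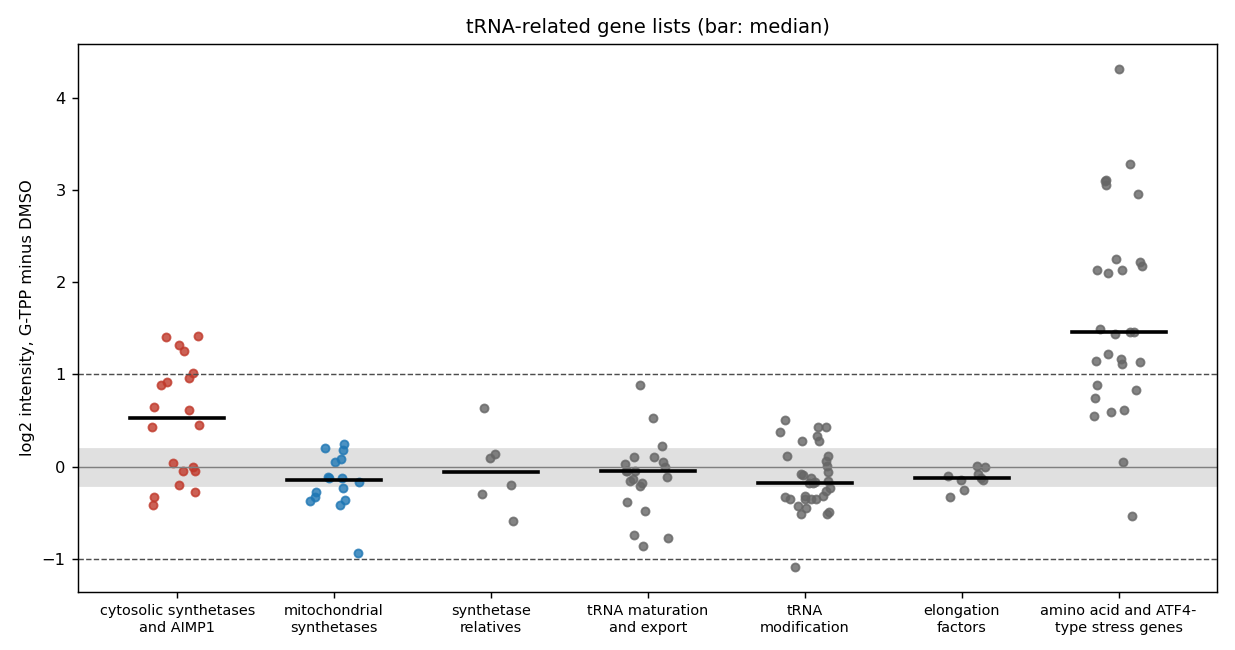
Log2 difference, G-TPP minus DMSO, of the kept genes of 7 lists, with horizontal spread for legibility, a black bar at each median, dashed lines at 2-fold and a grey band from the 25th to the 75th percentile of all kept genes. Medians are 0.53 for cytosolic synthetases and AIMP1, -0.15 for mitochondrial synthetases, between -0.17 and -0.05 for the other 4 tRNA lists, and 1.46 for amino acid and ATF4-type stress genes.

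Amino acid supply and ATF4-type stress genes were higher than the synthetases as a list. Of 29 kept genes 28 were above 0, 21 were at least 2-fold higher and 0 at least 2-fold lower, with a median log2 difference of 1.46. This list is known to be high from earlier results on these arrays, so it supports nothing here, and it serves as a scale. CTH, the cystathionine gamma-lyase, was highest, with 3477 with G-TPP and 173.9 with DMSO (4.32). The DMSO value of CTH was barely above the olfactory receptor floor of 172.6, so the size of its difference is uncertain. CHAC1, which degrades glutathione, and SESN2, a stress-induced mTORC1 inhibitor, were at 3.11 and 3.10. ALDH1L2, a mitochondrial folate enzyme, was at least 8.45-fold higher, since its DMSO value of 148.8 lay under the level of the olfactory receptors and was replaced by that level. ASNS, the asparagine synthetase, was 4.77-fold higher (2911 with G-TPP, 610.9 with DMSO), whereas NARS1, which loads asparagine on its tRNA, was 1.34-fold higher. SLC1A4 (2.13), CHAC1 and SLC1A5 (0.59) were the 3 of 24 genes with a window in this list that hold TTGCATCA, the letters found in 6 of 17 cytosolic synthetase genes.

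As for the arrays themselves, 11 of 12 markers of astroglial and glioma cells and 4 of 14 markers of other cell types passed the brightness limit. Of all 18417 genes named on the array, 11091 passed it. The summed intensity of the foreign markers was 2471 with G-TPP and 2659 with DMSO. None of these markers is listed at 0, the leukocyte marker PTPRC was at 32.91 with G-TPP and 34.83 with DMSO, and CD68, CDH5, APOA1 and RBFOX3 were kept. GFAP, the defining filament of astrocytes, was close to the brightness limit (231.5 with G-TPP, 245.2 with DMSO), and S100B was under it. The 11 kept astroglial and glioma markers had a median log2 difference of -0.08, with 4 above 0 and 7 below. PDGFRA (-1.70) and SOX2 (-1.44) were more than 2-fold lower with G-TPP, SOX9 was at -0.98, and SLC1A3 was at 0.64. The part of these marker differences in the synthetase values was not tested.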

How the data were processed

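Total RNA was extracted with Trizol and biotinylated for Affymetrix arrays, per the labels' protocols, with 1 array for G-TPP and 1 for DMSO. The deposited intensity values are on a linear scale, as their maxima of 17912 with G-TPP and 18995 with DMSO show, and were made by RMA in Affymetrix Expression Console 1.1.2, per the submitters' processing notes. RMA removes background, brings array distributions together and summarises probes, so a change in total RNA per cell is not visible. Medians of the 33297 probe sets were 215.5 with G-TPP and 224.8 with DMSO. The number of arrays limits the precision.

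Probe sets were named through the platform annotation and current RefSeq symbols: a single symbol was given for 19460, several for 1754 and none for 12083. The brightest probe set stood for a gene (769 genes had more than 1). VARS1 and VARS2 have 2 each, which gave the same log2 differences to 2 decimals. Log2 was taken with no pseudocount. With 1 array per group no test is possible, and genes were counted at an absolute log2 difference of 1 (2-fold).

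Members, gene lists and promoter motifs were chosen with earlier results of these data known. All members are named; of other lists, genes past 2-fold and up to 4 kept genes with the largest difference could be named. QRSL1, XPOT, EEF2, the markers GFAP, S100B and PTPRC, the partners ADAT3, TRMT10C and HSD17B10, and genes with a promoter match were added after their values were seen. The procedure was run on simulated data, made from the DMSO intensities by known folds with added noise. That run checks the calculation only and says nothing about differences between cultures or arrays. Python 3.11.15 was used with pandas 2.3.3, numpy 2.4.6, matplotlib 3.10.9 and statsmodels 0.14.6. Alternatives were other fold limits, filters, scalings, probe set choices, log2 of intensity plus 16, and other compartment lists.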

Additional observations from a re-analysis of the deposited data

How the results depend on the processing

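With 1 array per group, leaving out a replicate was not possible. No paired analysis was possible because the labels give no replicate numbers and each group has 1 array. The count of cytosolic members past the limit was 10 at 1.5-fold and 0 at 3-fold, against 5 at 2-fold, and the count of mitochondrial members was 1 at 1.5-fold (MARS2, lower), against 0 at 2-fold, because the limit itself moved. Scaling and the choice of lists changed the cytosolic count less: it was 6 when the median of all kept genes was set to 0 (SARS1 reached 1.01) and 4 after quantile normalization (MARS1 fell short at 0.99) or without GARS1 and KARS1. The cytosolic median stayed between 0.50 and 0.61, the mitochondrial median between -0.19 and -0.10, their difference between 0.67 and 0.76, and the median over amino acid pairs between 0.68 and 0.72 under the alternatives run. Some alternatives could not move the difference or the pair median. Median centring takes the same constant from every gene. Leaving out the filter, or filtering on the mean of both arrays, kept the same members and pairs. At the 75th percentile filter 19 cytosolic but only 6 mitochondrial members and 6 pairs remained. Over 4 changes of scale (median and lowess centring, quantile normalization and log2 of intensity plus 16), 148 of 148 values of single members moved by less than the scatter between probe sets of a gene, and none past 2-fold changed sign. Median centring moves every value by the same 0.04, and adding 16 hardly moves bright probe sets, so this count was partly fixed in advance. The choice of probe set could alter only VARS1 and VARS2, since the other 35 measured members have 1. FARSB (0.03 after lowess centring) and WARS2 crossed 0. Dim probe sets and the single array per group limit all of these values.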
